A study of Mus musculus with 4 samples.

Results

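The NRF2 antioxidant pathway was examined, through 10 of its genes, in cultured liver sinusoidal endothelial cells (LSECs), the fenestrated cells that line the liver's capillaries. These genes were *Nfe2l2*, which encodes NRF2, its inhibitor *Keap1*, and 8 genes known as NRF2 targets, *Slc7a11*, *Gclc*, *Gclm*, *Gsr*, *Txnrd1*, *Srxn1*, *Nqo1* and *Hmox1*. They were selected by gene symbol, and all 10 were present among the 18373 genes listed and among the 13628 genes that passed the filter on low counts. These genes and the further lists below were chosen with earlier results of these data known.

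KEAP1 binds NRF2 in the cytoplasm and hands it to a CUL3 ubiquitin ligase for degradation, and electrophiles or oxidants that modify KEAP1 let NRF2 accumulate. NRF2 then pairs with a small MAF protein on antioxidant response elements and drives genes for glutathione synthesis, thioredoxin recycling, quinone reduction and heme breakdown, while BACH1 competes for the same elements. NRF2 protein is controlled largely by its stability, so the level of *Nfe2l2* mRNA does not by itself measure the pathway's activity. LSECs face blood arriving from the gut, and the pathway is known to protect endothelial and other liver cells from oxidants.

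The measurements are bulk RNA-seq of primary LSECs from 8-week-old BALB/c mice in 4 libraries, 2 from cells given the control siRNA (NC) and 2 from cells given siRNA against *Airn* (si*Airn*), a long noncoding RNA. The cells carried no stated genetic change, were transfected for 48 h and were taken at day 3. The paper's methods describe isolating LSECs on a density gradient and then with anti-CD146 magnetic beads, a step that selects against other cells such as macrophages. The labels call the libraries biological replicates 1 and 2 of each group, name si*Airn*1 for both treated libraries and elsewhere speak of 2 separate si*Airn*, so which siRNA each one received is not settled, and whether the replicates came from separate animals or cultures is not stated, so the p-values measure only the spread between these libraries.

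Total counts were between 17308382 and 18371959 per library. *Airn* itself had 7 and 3 counts in the NC libraries and 11 and 9 in those labelled si*Airn*, which is too few for the test and not lower in the latter, so directions below refer to the labels. All 12 LSEC markers examined were detected, among them *Cdh5* at 2625 and 2322 CPM (read counts scaled to library size) for NC and 1794 and 1524 for si*Airn*, and the summed level of these markers was 10850 to 11070 CPM in NC against 7061 to 7864 in si*Airn* (10 of 12 called lower by the edgeR test used below). Summed macrophage markers were 288.8 and 349.2 CPM for NC and 212.8 and 173.7 for si*Airn* (8 of 13 tested lower), stellate cell markers 1144 and 1352 against 1404 and 1829 (4 of 12 higher), and hepatocyte markers 675.9 and 877.5 against 933.2 and 1234 (1 of 11 tested higher). Over all genes tested, 8.27% were called higher and 8.56% lower, and the hepatocyte count is near that share. Even so, log2 fold changes were above 0 for 10 of the 11 hepatocyte markers tested (median 0.39). They were above 0 for all 12 stellate cell markers (median 0.42), beside a median of 0.00 for all genes tested. At an unadjusted p under 0.05 in edgeR, 3 hepatocyte and 8 stellate cell markers were higher, and DESeq2 called 2 and 6. Cholangiocyte markers summed to 30.46 to 34.13 CPM and lymphocyte and neutrophil markers to 3.326 to 5.71 CPM over the 4 libraries, and none of the 5 and 3 tested was called (1 of each list higher at an unadjusted p under 0.05, 0 by DESeq2). No marker among the genes listed was at 0 in every library, and 8 of the 9 lymphocyte and neutrophil markers were among them. Fewer cells of a type and less RNA per cell cannot be told apart in bulk RNA, and the part of these differences in the results below was not tested.

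Of the 8 selected NRF2 target genes, 6 were called higher in the si*Airn* libraries, while *Keap1* was the 1 gene of the 10 with a lower mean. A further list of 14 detoxification genes often counted as NRF2 targets, described below, had 1 call, lower, and a median log2 fold change of -0.06. *Gclc*, *Gclm*, *Txnrd1*, *Srxn1*, *Nqo1* and *Hmox1* rose by 1.23- to 1.51-fold and passed an adjusted p under 0.05 (edgeR's quasi-likelihood test, adjusted over all genes tested by the Benjamini-Hochberg method, n = 2 libraries per group). That is 6 of 10, beside 8.27% of all genes tested called higher. None was called lower by this test, at an unadjusted p under 0.05 or by DESeq2, where 8.56% of all genes were called lower by edgeR. The median log2 fold change of the 10 genes was 0.43, beside 0.00 for all genes tested, and their range was -0.20 to 0.60.

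Both si*Airn* libraries lay above both NC libraries for 8 of the 10 genes, a pattern that 30.9% of all genes tested shared, and below them for *Keap1* alone, a pattern of 31.9% of all genes. The groups overlapped for *Slc7a11*. By FPKM the groups were apart for 9 genes too, but it was *Keap1* that overlapped and *Slc7a11* that did not. At the threshold of the study's methods (a fold change over 1.4 with an unadjusted p under 0.05), *Nqo1*, *Gclc*, *Txnrd1* and *Srxn1* passed as higher, 4 of 10 beside 5.25% of all genes. Measured against the mean of the NC libraries, the median log2 ratio of the 10 genes was 0.38 in si*Airn* replicate 1 and 0.46 in replicate 2, so both libraries carried the difference. Fits with 1 NC library left out gave medians of 0.41 (without replicate 1) and 0.45 (without replicate 2), but made few calls over all genes. Without NC replicate 1, none of the 10 genes passed the adjusted threshold (8 at an unadjusted p under 0.05), and without NC replicate 2 again none did (7 unadjusted). These fits called 40 and 0 of all genes (3506 and 3106 unadjusted). With si*Airn* replicate 1 left out the median of the 10 genes was 0.46, and with si*Airn* replicate 2 left out it was 0.38.

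**Figure D1:**
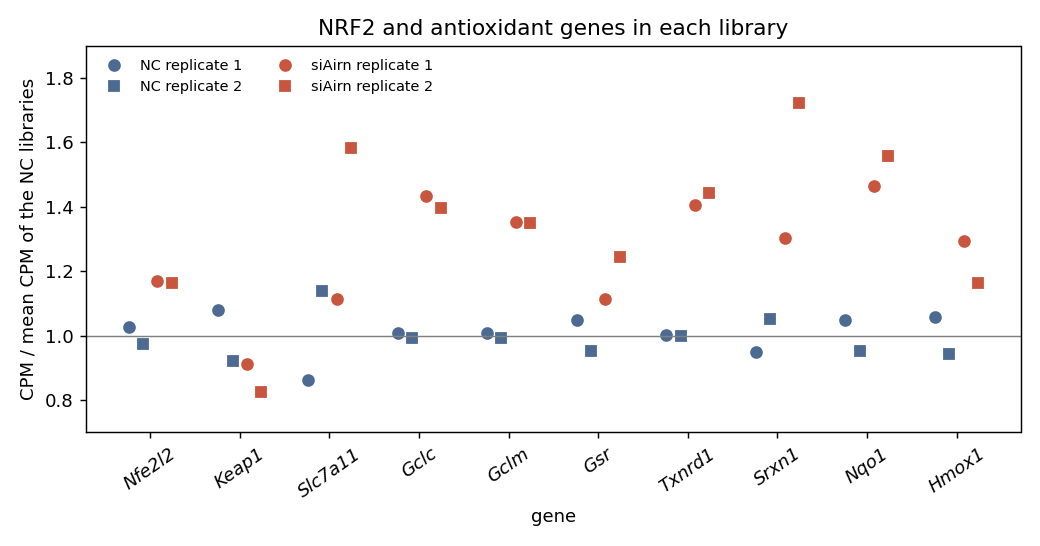
Level of each gene in each of the 4 libraries, as CPM divided by the mean CPM of the NC libraries (grey line at 1); circles are replicate 1 and squares replicate 2, blue NC and red si*Airn*. The red points lie above the blue for 8 genes and below them for *Keap1*, while for *Slc7a11* 1 red point lies between the blue points and 1 above them, and *Srxn1* and *Slc7a11* have the widest gap between the red points.

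Across genes, log2 fold changes in these libraries followed base composition and transcript length. Spearman's rho was -0.332 with GC content and 0.364 with length, over 12948 genes, as a description. For differences between replicates, rho with GC content was -0.035 in NC and -0.016 in si*Airn*. With genes split evenly into 5 classes by GC content, the median log2 fold change was 0.15 in the lowest class and -0.14 in the highest. The fit was therefore repeated with an offset for GC content and length in each library, and its values are given for the genes named where they changed a call or bear on one. With this offset 5 of the 10 genes passed, all higher, and the median was 0.37. Over all genes, this fit called 1031 in either direction, against 2294 in the main fit.

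The core of the antioxidant response element, written TGACNNNGC and sought on both strands, was looked up in the RefSeq promoter windows of mouse GRCm38.p6, which run from 250 bases before to 50 bases after each transcription start. A window was available for 7 of the 10 genes, and 4 of these held the core, *Nfe2l2*, *Gclm*, *Txnrd1* and *Srxn1*, beside 3781 of 27025 genes with a window (14.0%) and 4071 of all 32851 windows (12.4%). The following 29-base stretches are the matches that lie upstream of a start, read 5′ to 3′ on the minus strand with the core in capitals.
*Nfe2l2*, chr2:75704885-75704913: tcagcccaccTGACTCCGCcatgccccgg
*Gclm*, chr3:122245413-122245441: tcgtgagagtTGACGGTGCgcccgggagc
*Txnrd1*, chr10:82859104-82859132: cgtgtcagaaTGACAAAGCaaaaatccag

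The core was found 240 bases upstream of the *Nfe2l2* start, in the gene's own orientation. Those of *Gclm* and *Txnrd1* faced the other way, and that of *Txnrd1* stood before the second of its 3 annotated starts. None of the 4 matches, that of *Srxn1* (after its start) included, overlapped the letters TGACTCA of an AP-1 site on either strand. These are matches of letters in short windows, and no binding was measured.

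Neither *Nfe2l2* nor *Keap1* passed the test. *Nfe2l2* (gene ID 18024), the transcription factor of the pathway, was at 176.7 and 167.7 CPM for NC and 201.5 and 200.1 for si*Airn*. Both si*Airn* libraries were above both NC libraries, with means of 172.2 ± 6.37 and 200.8 ± 0.952 CPM (SD, n = 2), yet the log2 fold change of 0.22 (SE 0.06, 95% interval 0.07 to 0.37) had an adjusted p of 0.0527 in edgeR's quasi-likelihood test. In 4 of 8 alternative analyses the adjusted p was under 0.05, with a range of 0.0354 to 0.0727.

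*Keap1* (50868), the adaptor that targets NRF2 for degradation, was at 79.54 and 67.93 CPM for NC and 67.32 and 60.83 for si*Airn*. The highest si*Airn* library was just under the lowest NC library in CPM, but not in FPKM (21.84 against 21.21). The log2 fold change of -0.20 (SE 0.10, 95% interval -0.43 to 0.02) had an adjusted p of 0.187 in edgeR's quasi-likelihood test, and -0.09 (0.539) with the GC and length offset. It was also -0.09 without NC replicate 1, -0.31 without NC replicate 2 and -0.13 without si*Airn* replicate 2. An annotated gene on the opposite strand, *Gm16754*, covers 10.87% of its exonic bases, and the use of strand in counting is not given in the sources used here. The ratio of *Nfe2l2* to *Keap1*, taken per length from FPKM, was 2.91 and 3.28 for NC and 3.96 and 4.37 for si*Airn*, so it was higher in both si*Airn* libraries. This ratio was not tested and has no offset for GC content, which was 46.8% for *Nfe2l2* and 58.0% for *Keap1*. With the GC and length offset *Nfe2l2* stayed at a log2 fold change of 0.22.

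Both subunits of the enzyme that starts glutathione synthesis were higher in the si*Airn* libraries. *Gclc* (14629), the catalytic subunit of the enzyme that makes the first and limiting bond of glutathione, was at 64.66 and 63.73 CPM for NC and 92.05 and 89.66 for si*Airn*. It rose by 1.42-fold, from 64.2 ± 0.656 to 90.86 ± 1.69 CPM (log2 fold change 0.50, SE 0.06, adjusted p = 0.00748, edgeR's quasi-likelihood test), and passed in all 8 alternatives. The gap between groups was many times the spread within either of them.

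*Gclm* (14630), the modifier subunit of the same enzyme, was at 116.2 and 114.2 CPM for NC and 155.9 and 155.4 for si*Airn*, a rise of 1.35-fold (log2 fold change 0.43, SE 0.06, adjusted p = 0.00872, edgeR's quasi-likelihood test). Both subunits were thus higher in both si*Airn* libraries, and their ratio per length barely moved, with *Gclm* at 2.66 and 2.60 times the FPKM of *Gclc* in NC and 2.56 and 2.63 times in si*Airn*. The value of *Gclm* carried more doubt than that of *Gclc*. With the GC and length offset its log2 fold change was 0.23 (adjusted p = 0.0516), the 1 alternative of 8 in which it did not pass. *Gclc* was at 0.47 with the offset, so the rises of the subunits were alike only without it. *Gclm* had a GC content of 42.1%, below the 47.7% of *Gclc*. Its count was a fraction in all 4 libraries, and 3.92% of its 50-base windows also occur in other genes, so reads may have been divided among them.

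*Slc7a11* (26570), the cystine carrier that supplies cysteine for glutathione, was at 25.09 and 33.17 CPM for NC and 32.42 and 46.13 for si*Airn*. Replicate 1 of si*Airn* lay just below replicate 2 of NC, so the groups overlapped in CPM, while in FPKM it lay just above (3.63 against 3.59). The replicates differed by 1.32-fold in NC and 1.42-fold in si*Airn*, about as much as the groups (1.35-fold). The log2 fold change of 0.43 had a 95% interval of -0.02 to 0.88 and an adjusted p of 0.163 (edgeR's quasi-likelihood test). It was 0.24 and 0.64 without NC replicate 1 and 2, 0.15 without si*Airn* replicate 2, 0.66 without si*Airn* replicate 1 (adjusted p = 0.00875) and 0.10 with the GC and length offset. *Gsr* (14782), the reductase that restores glutathione from its oxidized form, was at 62.15 and 56.33 CPM for NC and 66.00 and 73.66 for si*Airn*. Its groups did not overlap, but the log2 fold change of 0.24 (SE 0.09, 95% interval 0.04 to 0.44) did not pass (adjusted p = 0.0994, edgeR's quasi-likelihood test), nor did it in any of 8 alternatives.

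The thioredoxin genes included the call with the smallest adjusted p of the 10. *Txnrd1* (50493), the cytosolic selenoenzyme that reduces thioredoxin with NADPH, was at 363.9 and 362.7 CPM for NC and 510.7 and 524.1 for si*Airn*. It rose by 1.42-fold, from 363.3 ± 0.808 to 517.4 ± 9.44 CPM (log2 fold change 0.51, SE 0.06, adjusted p = 0.00614, edgeR's quasi-likelihood test). The offset for GC and length left it at 0.51, and it passed in all 8 alternatives.

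*Srxn1* (76650), sulfiredoxin, which repairs over-oxidized peroxiredoxins, was at 134.2 and 148.5 CPM for NC and 184.4 and 243.3 for si*Airn*. It rose by 1.51-fold (log2 fold change 0.60, SE 0.13, adjusted p = 0.0256, edgeR's quasi-likelihood test), but the si*Airn* libraries stood 1.32-fold apart. Leaving out si*Airn* replicate 2 gave a log2 fold change of 0.38, and leaving out replicate 1 gave 0.78. It passed in all 8 alternatives, and was 0.69 with the GC and length offset.

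Among the remaining targets, *Nqo1* (18104), the quinone reductase often used as a reporter of NRF2 activity, was the most weakly covered, with only 116 and 111 counts for NC and 171 and 178 for si*Airn*. These are 6.77 and 6.136 CPM for NC and 9.46 and 10.06 for si*Airn*, and the groups were well apart. It rose by 1.51-fold (log2 fold change 0.60, SE 0.14, adjusted p = 0.0337, edgeR's quasi-likelihood test), and its log2 fold change was 0.65 with the GC and length offset. DESeq2 was the 1 alternative of 8 in which it did not pass (adjusted p = 0.14), and with si*Airn* replicate 2 left out its log2 fold change was 0.55 (adjusted p = 0.0939, edgeR's quasi-likelihood test).

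*Hmox1* (15368), heme oxygenase-1, which opens heme to biliverdin, iron and carbon monoxide, was at 875.7 and 782.3 CPM for NC and 1073 and 965.7 for si*Airn*. Both si*Airn* libraries were above both NC libraries, with means of 829.0 ± 66.0 and 1019 ± 76.1 CPM, and the 1.23-fold rise was close to the threshold (log2 fold change 0.30, SE 0.08, adjusted p = 0.0494, edgeR's quasi-likelihood test). It passed in 4 of 8 alternatives, with adjusted p between 0.0104 and 0.0565, and was 0.46 with the GC and length offset and 0.22 with si*Airn* replicate 1 left out (adjusted p = 0.126). *Hmox1* is also a gene of liver macrophages, whose markers *Adgre1* (5.602 and 6.08 CPM for NC, 3.762 and 2.827 for si*Airn*) and *Cd68* (38.93 and 53.18, then 27.94 and 28.94) were lower in the si*Airn* libraries, and the part of macrophage RNA in the *Hmox1* values was not tested.

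**Figure D2:**
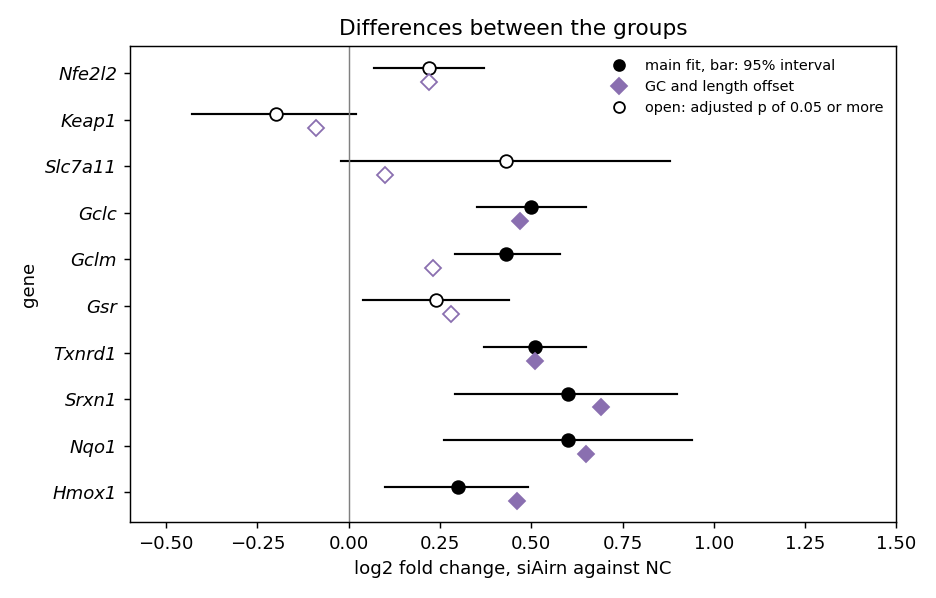
Log2 fold change of si*Airn* against NC for each gene (n = 2 libraries per group). Circles are the main fit, with bars for the 95% interval, diamonds are the fit with an offset for GC content and length, and filled symbols have an adjusted p under 0.05; the offset leaves *Txnrd1* at 0.51 and takes *Gclm* from 0.43 to 0.23 and *Slc7a11* from 0.43 to 0.10.

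Levels of the 10 genes were compared with each other per length, as FPKM, and spanned a wide range. *Hmox1* was highest, with a mean of 636.4 FPKM over the 4 libraries (529.25 to 753.5), followed by *Txnrd1* at 134.6 (109.29 to 160.67). *Nfe2l2* at 78.59, *Srxn1* at 66.16 and *Gclm* at 64.15 came next, with ranges over the 4 libraries that overlapped from one to the next. Within NC, however, *Nfe2l2* (73.49 and 69.49) was above *Srxn1* (49.3 and 54.34) in both libraries, and only the si*Airn* values overlapped (86.49 and 84.89 against 69.89 and 91.13). *Nfe2l2* was above *Gclm* in each of the 4 libraries (*Gclm* 53.41 and 53.06 for NC, 75.18 and 74.94 for si*Airn*). *Gsr* at 25.32, *Gclc* at 24.56 and *Keap1* at 21.94 also overlapped over the 4 libraries, but their order differed by group. *Keap1* was above *Gclc* in both NC libraries (25.27 and 21.21 against 20.07 and 20.37) and below it in both si*Airn* libraries (21.84 and 19.42 against 29.33 and 28.46). *Nqo1* at 5.785 and *Slc7a11* at 3.765 were lowest, with overlapping ranges although *Nqo1* was above *Slc7a11* in each of the 4 libraries.

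The ranges over the 4 libraries did not overlap between *Hmox1* and *Txnrd1*, *Txnrd1* and *Nfe2l2*, *Gclm* and *Gsr*, or *Keap1* and *Nqo1*. *Hmox1* alone made up between 57.2% and 62.0% of the summed FPKM of the 10 genes. Without it the sum was 363.3 and 357.4 for NC and 478.0 and 500.9 for si*Airn*, again higher in both si*Airn* libraries. Transcripts of the thioredoxin reductase *Txnrd1* were more abundant than those of the glutathione reductase *Gsr* throughout. *Txnrd1* was at 4.58 and 5.03 times the FPKM of *Gsr* in NC and 6.00 and 5.52 times in si*Airn*.

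**Figure D3:**
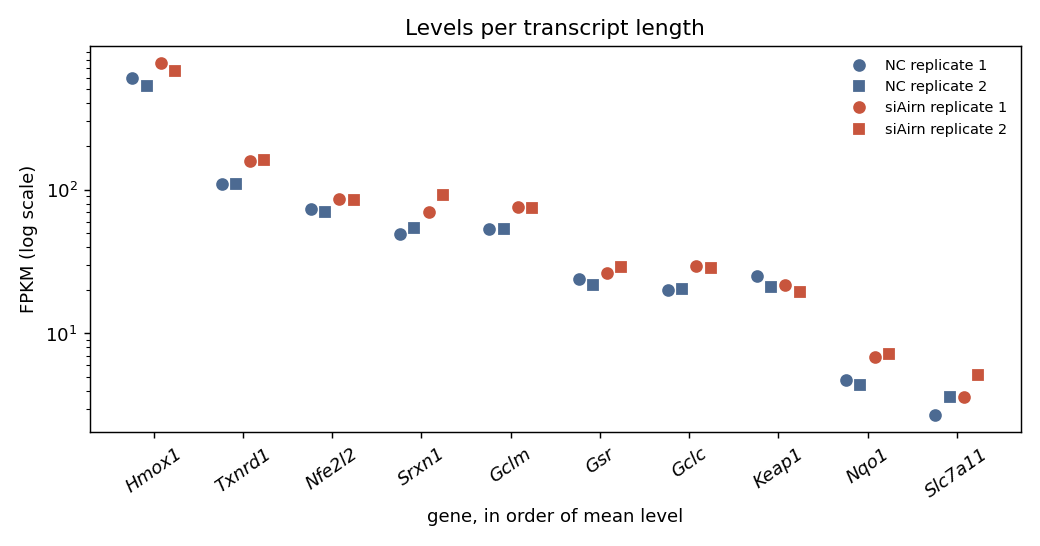
FPKM of each gene in each library on a log axis, ordered by mean level; circles are replicate 1 and squares replicate 2, blue NC and red si*Airn*. *Hmox1* stands apart at 529.25 to 753.5 FPKM, and *Nqo1* and *Slc7a11* are lowest.

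Further redox genes were called about as often as all genes. In 7 further lists, of 90 genes in all, 85 were tested, of which 7 were called higher, 6 lower and 72 not called (edgeR's quasi-likelihood test, adjusted p under 0.05), beside 8.27% and 8.56% of all genes tested, and the same shares stand behind the counts of each list below. With the GC and length offset, 6 of the 7 higher calls held and none of the 6 lower ones did. With NC replicate 1 left out none of these 85 genes passed (25 at an unadjusted p under 0.05), and with NC replicate 2 left out none did (16 unadjusted), while 15 and 9 passed with si*Airn* replicate 1 and replicate 2 left out.

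Of the partners and regulators of NRF2, 1 of 13 tested was called, with a list median of 0.14. It was *Bach1*, the repressor that competes with NRF2 at its elements, at 46.98 and 45.11 CPM for NC and 67.49 and 62.86 for si*Airn* (log2 fold change 0.50, SE 0.07, adjusted p = 0.00989, edgeR's quasi-likelihood test), and at a log2 fold change of 0.34 with the GC and length offset (0.0375). *Bach1* was thus higher in the libraries in which 6 of the 8 selected targets were. The small MAF partner *Mafg* had a log2 fold change of 0.14 (adjusted p = 0.239).

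Of 22 glutathione genes tested outside the 10, 2 rose and 2 fell, near the shares over all genes (8.27% and 8.56%), with a median of -0.03. The exporters *Abcc4* and *Abcc1*, which carry glutathione conjugates among other substrates, rose by log2 fold changes of 0.61 and 0.40 (adjusted p = 0.0202 and 0.0187, edgeR's quasi-likelihood test), and by 0.50 and 0.27 with the GC and length offset, where *Abcc1* did not pass (0.0726). The peroxidases *Gpx1* and *Gpx4*, which spend glutathione on peroxides, had -0.27 and -0.26 (adjusted p = 0.0474 and 0.0294), and -0.04 and -0.02 with the GC and length offset. *Slc3a2*, the heavy chain that pairs with the product of *Slc7a11*, was at -0.02 (adjusted p = 0.869).

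Of 16 thioredoxin and peroxiredoxin genes, 1 rose and 2 fell, beside 8.27% and 8.56% of all genes, with a median of 0.06. *Prdx6*, a peroxiredoxin that also acts on phospholipid peroxides, rose from 291.4 and 295.4 CPM for NC to 402.4 and 450.7 for si*Airn* (log2 fold change 0.54, SE 0.07, adjusted p = 0.00853, edgeR's quasi-likelihood test). *Prdx2* and the mitochondrial reductase *Txnrd2* had -0.32 and -0.28 (adjusted p = 0.0289 and 0.0463), and -0.20 and -0.17 with the GC and length offset, where neither passed. *Txn1*, the substrate of TXNRD1, and *Prdx1* were both at 0.13 and did not pass (adjusted p = 0.354 and 0.23).

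Of 5 genes for superoxide dismutases, their chaperone and catalase, 1 was called. *Cat*, catalase, rose from 163.8 and 168.8 CPM for NC to 227.7 and 266.6 for si*Airn* (log2 fold change 0.57, SE 0.09, adjusted p = 0.0108, edgeR's quasi-likelihood test). *Sod1* was at -0.22 (adjusted p = 0.0779) and *Sod2* at -0.01 (0.958).

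Of 7 genes linked to the supply of NADPH, the electron donor of GSR, TXNRD1 and NQO1, 2 were called, both higher. The list median was 0.01. *Taldo1*, transaldolase, rose from 307.1 and 296.6 CPM to 444.2 and 456.6 (log2 fold change 0.58, SE 0.06, adjusted p = 0.00513, edgeR's quasi-likelihood test). *Pgd*, which yields NADPH in the pentose phosphate pathway, rose by a log2 fold change of 0.35 (adjusted p = 0.0222). Both stayed called with the GC and length offset, at 0.76 and 0.33.

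Of 14 other detoxification genes often listed as NRF2 targets, 1 was called, *Ephx1*, an epoxide hydrolase, at -0.29 (adjusted p = 0.0337, edgeR's quasi-likelihood test) and -0.14 with the GC and length offset (0.29), and the list median was -0.06. Of 8 genes tested for superoxide-generating oxidases, 1 was called. *Cyba*, the membrane subunit shared by NADPH oxidases, fell from 70.26 and 86.51 CPM for NC to 48.13 and 56.98 for si*Airn* (log2 fold change -0.58, SE 0.12, adjusted p = 0.024), and was at -0.34 with the offset (0.0705). *Cyba* is abundant in macrophages, and summed macrophage markers were lower in the same libraries, as given above, and their part in this difference was not tested.

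Promoter windows were found for 78 of these further redox genes, and 15 of them (19.2%) held the core of the antioxidant response element.

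**Figure D4:**
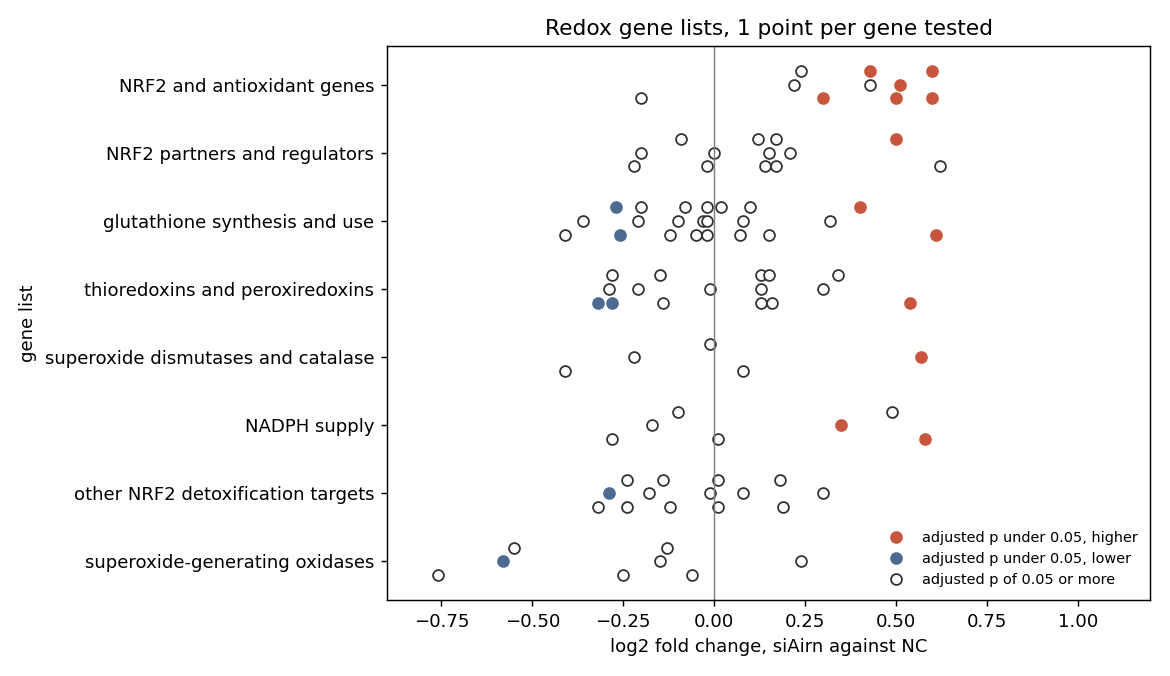
Log2 fold change of si*Airn* against NC for the 10 genes (top row) and for 7 further redox lists, 1 point per gene tested, spread vertically for visibility only; red and blue filled points have an adjusted p under 0.05 as higher or lower, open points do not. The top row has 6 red points and a median of 0.43, while the medians of the other lists lie between -0.20 and 0.14.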

How the data were processed

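Primary LSECs were sequenced as single-end reads of 50 bases on a BGIseq500. The authors deposited 1 table with an estimated count and a length-scaled value per gene and library. These estimated counts are deposited without normalization, 76.5% to 76.8% of them as whole numbers. The header of the other values names no unit. They were taken for FPKM made by the authors, since they scale with the count and inversely with gene length and depth. The deposited group means were not used. The submitters' processing notes name BWA, Bowtie2 and RSEM, and build hg19, a human build, for these mouse samples. Strand and filters are not given in the sources used here.

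Estimated counts were rounded to whole numbers and tested in edgeR 4.0.16 under R 4.3.3 (TMM factors 0.985 to 1.02, filterByExpr, glmQLFit and glmQLFTest, no covariate), with Benjamini-Hochberg adjustment over 13628 genes, and standard errors were taken from the F statistic. CPM use TMM-scaled totals. The biological coefficient of variation was 0.0754. Replicates differed beyond sampling noise (chi-square per gene 6.37 in NC, 8.51 in si*Airn*). The calculations were tested on simulated data.

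The alternatives were DESeq2 1.42.0 (adjusted p missing for 6636 genes and left so), upper-quartile factors, edgeR's likelihood-ratio test, no filter beyond 1 count, a minimum of 10 counts in every library, limma 3.58.1 on log2(FPKM + 1) and log2(FPKM + 0.1) for a mean FPKM of at least 1, an offset from natural splines (5 degrees of freedom each) of GC content and length of the longest GENCODE M21 transcript (12948 genes, 95.0%), a replicate block, the block with the offset, and each library left out. Counts of alternatives in the text cover the first 8 (the block and left-out libraries aside).

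The 10 genes, the 7 redox lists and the 6 marker lists were chosen with earlier results of these data known. Named genes are the 10, up to 4 called genes of each redox list by absolute log2 fold change, 10 set redox genes and defining cell type markers. Gene windows shared with other genes and overlapping exons were read from GENCODE M21.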

Additional observations from a re-analysis of the deposited data

How the results depend on the processing

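The direction of all 10 genes was the same in all 14 other settings (140 values, 0 reversed). Under the 8 alternatives without a replicate block, 5 to 7 of the 10 were called higher and 3 to 5 passed the study's threshold. Calls over all genes in these alternatives ran from 1031 (GC and length offset) to 3140 (likelihood-ratio test). The median of the 10 genes was 0.43 and moved to 0.37 with the GC and length offset, alone or with the replicate block. With the offset, made for 12948 of the 13628 genes tested, calls over all genes were 1031 against 2294 in the main fit. Those in the further redox lists were 8 against 13, and limma on log2(FPKM + 0.1) also gave 8. A replicate block raised these calls to 4841 and 38 (4119 and 35 with the offset), called 9 of the 10 genes higher and called *Keap1* lower, the 1 lower call among them (adjusted p = 0.0186, edgeR's quasi-likelihood test). Block and offset together left 8 called higher, without *Slc7a11* (0.10), and *Keap1* not called (-0.09, adjusted p = 0.226). The labels do not say that a replicate number marks a shared batch, and deviations of same-numbered libraries correlated at 0.27 across genes. With 1 library left out, the remaining library of that group is assumed to vary like the other group. Calls then ran from 0 to 2410 over all genes (1446 without si*Airn* replicate 2), 0 to 15 in the redox lists and 0 to 6 among the 10 genes, and the median from 0.38 to 0.46. Of the 10 genes *Nqo1* had the fewest counts, 111 to 178.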
